A study of Mus musculus with 12 samples.

Results

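The extracellular matrix genes described here are the collagen chains, the laminin chains and 15 other matrix genes in the RPKM table of cardiomyocytes with inducible Hey1 or Hey2. They were chosen by symbol alone: every collagen chain gene (Col, number, a, number), every laminin alpha, beta or gamma chain gene (Lama, Lamb or Lamc with 1 digit), and Fn1, Fbn1, Fbn2, Nid1, Nid2, Dcn, Bgn, Lum, Sparc, Efemp1, Eln, Postn, Vcan, Mmp2 and Mmp14. The names matched 65 of the 23427 rows of the table, and 59 of these had a value in at least 1 library, among 15371 genes with a value. The fibrillar class held 11 genes with a value (Col1a1, Col1a2, Col2a1, Col3a1, Col5a1, Col5a2, Col5a3, Col11a1, Col11a2, Col24a1 and Col27a1). The basement membrane class held 17, which were 6 type IV collagen chains, 9 laminin chains and the nidogens Nid1 and Nid2. The laminin beta chain listed in the table as Lamb1-1 has a symbol outside the naming rule, and its values are given as a partner chain only.

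The cells were murine cardiomyocytes differentiated in vitro from the embryonic stem cell line CM7/1. There were 2 lines, one with doxycycline-inducible Hey1 and one with doxycycline-inducible Hey2, both transcriptional repressors downstream of Notch. RNA was sequenced from uninduced control cells and from cells given 1000 ng/ml doxycycline for 48 h, with 1 library for each line and state. In what follows the 4 levels of a gene are always in the order uninduced Hey1 line, induced Hey1 line, uninduced Hey2 line and induced Hey2 line. No RNA library came from cells with doxycycline but without an inducible gene, so effects of the drug and of the induced factor cannot be told apart. The 2 lines differ in the inducible gene and each state of a line is 1 library, so line, culture and library also cannot be told apart.

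The extracellular matrix is the protein meshwork that cells secrete around themselves. Fibrillar collagens assemble into fibrils that give connective tissue its tensile strength. Basement membranes are thin sheets built from a laminin network and a type IV collagen network, joined by nidogens and perlecan, and they underlie epithelia and wrap individual cardiomyocytes. In the heart, fibrillar collagen comes mainly from fibroblasts, while basement membrane components are made by several cell types, including cardiomyocytes and endothelium.

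Reads in listed genes numbered 3151196, 3142314, 2296145 and 4182141, as recovered from the steps of the deposited values. Genes without a value are left blank in the table, no cell holds 0, and listed values began at 10 reads in the Hey1 line and at 5 reads in the Hey2 line, so a blank was read as fewer reads than that floor. The induced factors stood where the labels place them, with Hey1 at 0.735 and 8.59 RPKM before and after its own induction, and Hey2 blank before and at 6.59 RPKM after. Summed over the 9 cardiomyocyte markers (Myh6, Myh7, Tnnt2, Tnni3, Actn2, Ryr2, Myl2, Myl7 and Nppa), all of them listed in every library, the level was 14235, 15007, 982 and 1035 RPKM. The 7 pluripotent cell markers with a row in the table summed to 31.4, 25.7, 279 and 282 RPKM. The epicardial and epithelial markers, 7 with a row, summed to 26.7, 21.8, 279 and 362 RPKM. Fibroblast and mesenchyme markers were low in all 4 libraries, with 5, 5, 7 and 7 of 10 listed and sums of 5.46, 4.20, 10.8 and 11.7 RPKM; Tcf21, Fap and Meox1 were blank in every library. The Hey2 line thus had lower cardiomyocyte markers and higher pluripotent and epithelial markers than the Hey1 line in both states, and every difference between the lines given below stands beside these values, whose part in it was not tested. In bulk RNA, fewer cells of a type and less RNA per cell cannot be told apart.

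Sparc, which encodes a collagen-binding glycoprotein also called osteonectin, had the highest level of all matrix genes in each library. Its levels were 327, 328, 296 and 325 RPKM, and it ranked 50, 48, 25 and 18 among all listed genes. The next highest matrix genes in the Hey1 line were the type IV collagen chains Col4a2 and Col4a1, then the laminin gamma chain Lamc1 and fibronectin (Fn1). In the uninduced Hey2 line Col4a1, Lamc1, Fn1 and Col4a2 followed Sparc, and after Hey2 induction Col4a1, Lamc1, Fn1 and Col1a1 did. Together the matrix genes summed to 801, 809, 735 and 851 RPKM and took 0.912%, 0.944%, 0.912% and 1.06% of the reads in listed genes. The basement membrane class made up 43.2%, 44.3%, 35.4% and 35.8% of the summed matrix RPKM, and the fibrillar class 5.72%, 5.11%, 9.57% and 10.5%. Per length, basement membrane RNA therefore exceeded fibrillar RNA in every library, and the fibrillar share was higher in both Hey2-line libraries than in both Hey1-line libraries.

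Fibrillar collagens were led by Col1a1, which encodes the prevailing chain of type I collagen, the main collagen of connective tissue. Its levels were 24.7, 24.0, 34.7 and 45.5 RPKM, highest in the induced Hey2 line. Col1a2, its partner chain, was far lower at 3.39, 2.13, 9.87 and 12.2 RPKM. The type III collagen gene Col3a1, common in distensible tissue, stood at 7.26, 5.66, 8.28 and 10.1 RPKM. Col5a1 and Col5a2 encode type V collagen, which nucleates fibrils of type I collagen. Col5a1 had levels of 4.17, 3.87, 7.70 and 9.34 RPKM, and Col5a2 had levels of 5.37, 4.39, 5.47 and 7.50 RPKM. Col11a1, a minor fibril chain best known from cartilage, was low at 0.892, 0.660, 1.22 and 1.5 RPKM. In all 6 of these genes the lowest level was in the induced Hey1 line and the highest in the induced Hey2 line. The other 5 fibrillar genes were blank in at least 1 library. Among them Col2a1, the cartilage fibril collagen, was blank in the uninduced Hey1 line and stood at 0.364, 2.30 and 2.31 RPKM in the others.

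**Figure D1:**
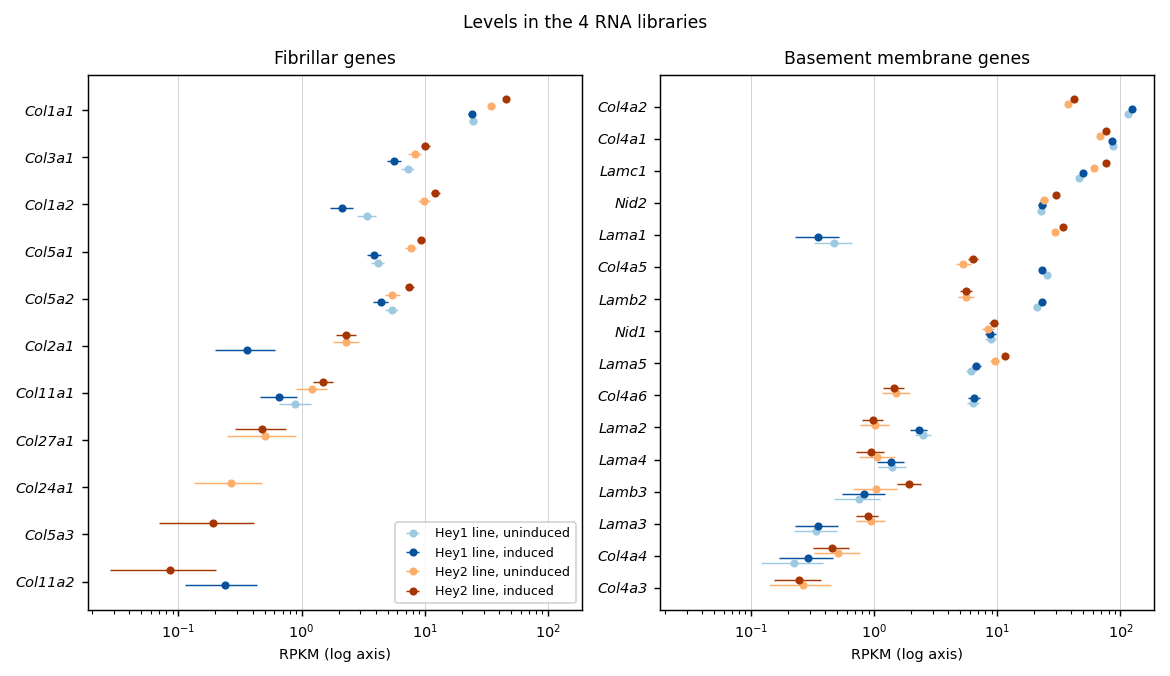
Level in RPKM (horizontal log axis) of the 11 fibrillar genes (left) and 16 of the 17 basement membrane genes (right) in the 4 libraries, 1 point per library with its exact 95% Poisson interval of counting error; a blank cell has no point. Col1a1 leads the fibrillar genes at 24.0 to 45.5 RPKM, Lama1 lies below 1 RPKM in the Hey1 line and at 29.2 and 34.0 RPKM in the Hey2 line, and Col4a2 exceeds Col4a1 in the Hey1 line only.

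In the basement membrane class the type IV collagen chains differed in how they split between the lines. Col4a1 and Col4a2 encode the chains of the ubiquitous type IV network. Col4a1 stood at 86.7, 85.4, 68.6 and 76.4 RPKM. Col4a2 stood at 114, 124, 37.8 and 42.1 RPKM, so both Hey1-line libraries were well above both Hey2-line libraries. Col4a5 and Col4a6 encode X-linked type IV chains of more restricted basement membranes. Col4a5 had levels of 25.3, 23.1, 5.28 and 6.34 RPKM, and Col4a6 had levels of 6.38, 6.48, 1.52 and 1.45 RPKM, again high in the Hey1 line. Col4a4 was at 0.225 to 0.512 RPKM, and Col4a3 was listed in the Hey2 line only, at 0.263 and 0.246 RPKM.

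Col4a1 and Col4a2 lie head to head, and their RefSeq promoter windows (250 bases before to 50 after the start, build GRCm38.p6) are shown because these adjacent genes had different ratios between the lines. The windows share 78 bases, set in capitals, which the 2 genes read from opposite strands; Col4a1 lies at chr8:11312777-11313076 on the minus strand and Col4a2 at chr8:11312555-11312854 on the plus strand, with start sites 21 bases apart.
Col4a1: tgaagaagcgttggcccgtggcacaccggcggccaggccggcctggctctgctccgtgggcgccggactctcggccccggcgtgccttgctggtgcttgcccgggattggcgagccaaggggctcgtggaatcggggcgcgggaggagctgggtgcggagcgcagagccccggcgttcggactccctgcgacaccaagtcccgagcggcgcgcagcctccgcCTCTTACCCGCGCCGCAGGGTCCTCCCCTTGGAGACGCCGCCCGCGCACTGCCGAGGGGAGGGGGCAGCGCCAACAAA
Col4a2: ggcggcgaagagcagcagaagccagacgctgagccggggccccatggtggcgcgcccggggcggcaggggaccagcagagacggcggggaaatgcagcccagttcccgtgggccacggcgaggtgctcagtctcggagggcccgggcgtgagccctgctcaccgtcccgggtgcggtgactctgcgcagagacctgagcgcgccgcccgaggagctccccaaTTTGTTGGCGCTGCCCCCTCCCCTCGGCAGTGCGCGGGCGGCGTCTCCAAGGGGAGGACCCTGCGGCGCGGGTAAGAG
Col4a5 and Col4a6 also lie head to head, on chromosome X, with start sites 1343 bases apart and no shared base in their windows. Their start sites leave a gap between the genes. The Col4a2 start (11312805) instead lies before the Col4a1 start (11312826), so the first bases of that pair overlap. The GC content of the windows was 74.0% for Col4a1, 73.7% for Col4a2, 52.7% for Col4a5 and 48.3% for Col4a6.

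Col4a2 did not keep a fixed ratio to Col4a1 across the lines. Per length, the RPKM ratio of Col4a2 to Col4a1 was 1.32 (95% interval of counting error 1.27 to 1.37) and 1.45 (1.39 to 1.51) in the Hey1 line. In the Hey2 line the same ratio was 0.552 (0.517 to 0.589) and 0.551 (0.526 to 0.577). Hey1-line and Hey2-line intervals lay on opposite sides of 1. The X-linked pair behaved otherwise, with Col4a6 at 0.253 (0.222 to 0.286), 0.280 (0.247 to 0.317), 0.287 (0.211 to 0.386) and 0.229 (0.182 to 0.285) of Col4a5. All 4 of these intervals overlapped, although both genes had much lower levels in the Hey2 line.

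Laminins are heterotrimers of an alpha, a beta and a gamma chain, and Lamc1, the gamma chain shared by most of them, was the most abundant laminin gene at 45.8, 49.5, 60.9 and 75.8 RPKM. Lama1, the alpha chain typical of early embryonic basement membranes, had the widest range of all the compared matrix genes. It stood at 0.469 and 0.350 RPKM in the Hey1 line, from 33 and 25 reads, and at 29.2 and 34.0 RPKM in the Hey2 line, from 1600 and 3359 reads. Lama5, an alpha chain of many mature basement membranes, stood at 6.12, 6.74, 9.53 and 11.5 RPKM. Lamb2, a beta chain known from neuromuscular synapses and the kidney filter, went the other way at 21.0, 22.9, 5.57 and 5.57 RPKM. Lamb1-1, the alternative beta chain, stood at 17.4, 16.0, 50.4 and 53.2 RPKM. Relative to Lamc1, the Lama1 level was 0.0102 and 0.00707 in the Hey1 line, against 0.480 and 0.449 in the other. The Lamb2 level was 0.457 and 0.462 of Lamc1 in the Hey1 line, against 0.0914 and 0.0735 in the other, while that of Lamb1-1 was 0.380 and 0.323 against 0.828 and 0.702. Lamb2 RNA was thus the higher of both beta chains in the Hey1 line and the lower in the Hey2 line. The ratio of Lama5 to Lamc1 stayed between 0.134 and 0.157.

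The epithelial laminin chains Lamb3 and Lama3, which assemble together in the basement membrane under hemidesmosomes, were low. Lamb3 was at 0.746, 0.833, 1.04 and 1.92 RPKM. Lama3 had levels between 0.340 and 0.942 RPKM. Lama2, the muscle alpha chain, stood at 2.49, 2.31, 1.02 and 0.973 RPKM, and Lama4, found in vessel walls, at 1.41, 1.37, 1.06 and 0.941 RPKM. The nidogens link the laminin and collagen IV networks. Nid2 was at 22.6, 23.0, 23.9 and 30.0 RPKM and Nid1 at 8.81, 8.80, 8.40 and 9.37 RPKM, so Nid2 exceeded Nid1 2.56-fold to 3.20-fold in every library.

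**Figure D2:**
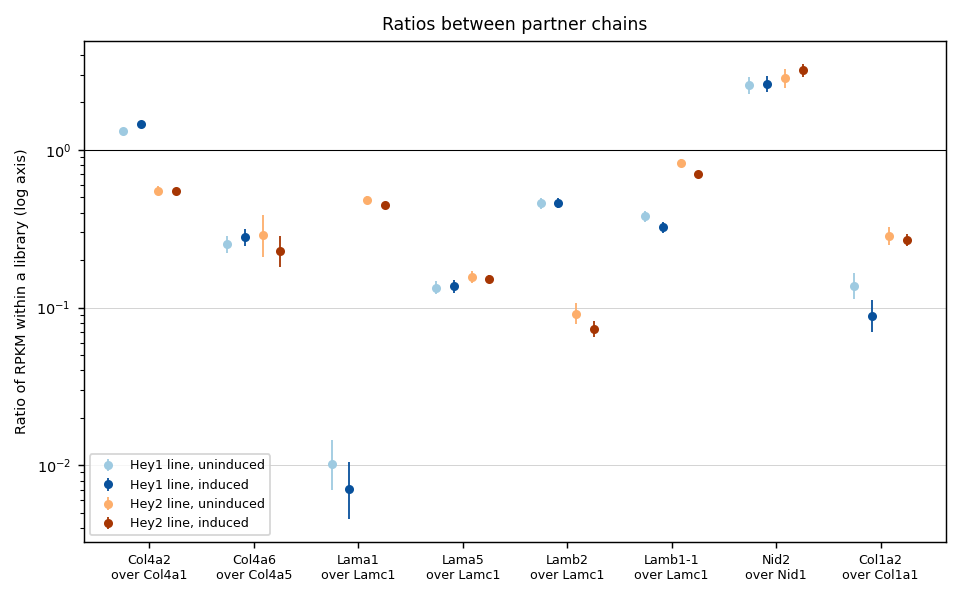
Ratio of the RPKM of partner chains within a library (vertical log axis), 1 point per library with its 95% interval of counting error. Col4a2 over Col4a1 lies above 1 in the Hey1 line and below 1 in the Hey2 line, Lama1 over Lamc1 runs from 0.00707 to 0.480, and Lama5 over Lamc1 and Col4a6 over Col4a5 lie close together across the 4 libraries.

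The question for each induction was how matrix RNA differed between induced and uninduced cells of 1 line. Differences are on the log2(RPKM + 1) scale, induced minus uninduced, and a gene was compared if each library listed it and its mean level reached 1 RPKM, which kept 36 of the 59 matrix genes and 10991 genes in all. Of the remaining matrix genes, 4 had 4 values but a lower mean (Col22a1, Col4a4, Lama3 and Col13a1) and 19 were blank in at least 1 library. With 1 library per group there is no test of a condition. A gene was counted by size where its difference reached 0.32 on that scale, and by counting where the exact 95% interval of its RPKM ratio lay off 1, which compares the reads of these libraries only.

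With Hey1 induction the matrix genes as a whole differed little, while the fibrillar collagens were lower. The median difference of the 36 genes was -0.02, against -0.06 for all compared genes, and 16 of 36 lay above 0, beside 38.4% of all compared genes. That median had no fixed direction: it was 0.059 under median ratio scaling and 0.033 under upper quartile scaling, with 21 of 36 above 0 in each, and 0.0012 with no minimum mean. By size 0 were higher and 3 were lower (Col1a2, Col8a1 and Postn), where 3.28% of all compared genes were higher and 12.6% lower. By counting 2 were higher and 6 lower, beside 4.88% and 13.5% of all compared genes. The share of lower genes among the matrix genes was thus near that of all genes. Among the fibrillar genes the median was -0.21 and 6 of 6 lay below 0, but 1 of 6 lay above 0 when the libraries were scaled by their median ratio or upper quartile. Most compared genes, 6767 of 10991, also lay below 0. In the basement membrane class the median was 0.02 and 8 of 14 lay above 0.

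The fibrillar genes that were lower by counting were Col1a2, Col3a1 and Col5a2. Col1a2 was 1.59-fold lower in the induced Hey1 line (95% interval 1.20 to 2.13), from 129 and 82 reads. Col3a1 was 1.28-fold lower (1.08 to 1.53) and Col5a2 was 1.22-fold lower (1.02 to 1.47). Col1a1, their most abundant companion, had a ratio of 0.973 (0.884 to 1.07), which lay within counting error. The Col1a2 level relative to Col1a1 was 0.137 (0.113 to 0.165) in uninduced and 0.0884 (0.0696 to 0.111) in induced Hey1-line cells. Outside the class, Col8a1, a short-chain network collagen of vessels, stood at 1.51 and 0.939 RPKM, 1.60-fold lower (1.04 to 2.51). Postn, a matricellular protein of valves and activated fibroblasts, stood at 6.48 and 4.33 RPKM, 1.5-fold lower (1.16 to 1.93). Of the basement membrane genes Col4a5 was 1.09-fold lower (1.008 to 1.18). Col4a2 was 1.08-fold higher (1.04 to 1.12) and Lamc1 was 1.08-fold higher (1.02 to 1.14). All these intervals rest on the deposited scaling and were not recomputed under another. Under median ratio scaling the median difference of all compared genes moved from -0.06 to 0.01. Of the lower genes, Col5a2, Col8a1 and Col4a5 had limits nearest 1, so their calls depend most on the scaling. The fibroblast marker sum was 5.46 RPKM in uninduced and 4.20 RPKM in induced Hey1-line cells, and that of smooth muscle was 324 and 350 RPKM. Of the smooth muscle markers Tagln was 1.17-fold lower, while Acta2 was 1.17-fold and Myocd 1.14-fold higher. Of other marker genes, the epithelial keratin Krt19 was 2.21-fold lower, the pluripotency gene Zfp42 1.60-fold lower and Afp 1.39-fold lower. Each was the only compared gene of its list off 1 by counting. Above 0 lay 3 of 5 epicardial and epithelial, 1 of 7 pluripotent cell and 2 of 5 yolk sac and primitive endoderm markers. Among the 9 cardiomyocyte genes 6 were higher and 2 lower by counting. Tnni3, Myh6 and Myh7 were 1.27-fold, 1.24-fold and 1.21-fold higher, while Nppa was 1.26-fold and Myl7 1.14-fold lower. The part of these cell types in the fibrillar values was not tested.

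With Hey2 induction most of the compared matrix genes of both classes were higher. The median difference of the 36 genes was 0.23, against -0.00 for all compared genes, and 30 of 36 lay above 0, beside 49.4% of all compared genes. By size 10 were higher and 0 lower, where 5.62% of all compared genes were higher and 5.9% lower. By counting 22 were higher and 0 lower, beside 8.04% and 6.63% of all compared genes. Both shares of higher genes were above the background share. The counting share also depends on reads per gene, and the background was not matched for reads. Genes with many reads were counted at small ratios, such as Sparc at 1.10 and Col4a1 at 1.11. The fibrillar median was 0.27 with 6 of 6 above 0, and the basement membrane median was 0.18 with 11 of 14 above 0. These counts include Lamb3 and Col11a1, which passed the filter on mean level only through the induced Hey2 library. All 3 medians kept their direction under every alternative run. With no minimum mean, 30 of 40 matrix genes and 11 of 16 basement membrane genes lay above 0. The genes added there, Col22a1, Col4a4, Lama3 and Col13a1, had Hey2 ratios of 0.857, 0.892, 0.940 and 0.788. Other matrix genes listed in both Hey2-line libraries but blank in a Hey1-line one also had ratios below 1. The exceptions were Eln, Col9a2, Col14a1, Col7a1 and Col2a1. All of these ratios lay within counting error.

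Efemp1, the elastic fibre glycoprotein fibulin-3, had the largest ratio of the 36 compared matrix genes. It was at 2.22 RPKM in uninduced and 5.02 RPKM in induced Hey2-line cells, 2.26-fold higher (1.46 to 3.62), and at 0.863 and 1.11 RPKM in the Hey1 line. Lamb3 was 1.84-fold higher (1.16 to 3.0), but it passed the filter on mean level only through the induced Hey2 library. The small leucine-rich proteoglycans biglycan and decorin bind collagen fibrils. Biglycan (Bgn) stood at 1.67 and 2.86 RPKM, 1.71-fold higher (1.06 to 2.87). Decorin (Dcn) stood at 2.09 and 3.56 RPKM, also 1.71-fold higher (1.07 to 2.80). Mmp14, a membrane-bound protease that cleaves collagen and activates the gelatinase Mmp2, stood at 2.48 and 4.23 RPKM and was 1.71-fold higher (1.17 to 2.55). Mmp2 itself was at 13.1 and 12.4 RPKM, with a ratio of 0.944 (0.80 to 1.12) that lay within counting error. These 5 leading genes were all low in level, and their intervals are correspondingly wide.

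The abundant matrix genes had smaller ratios with narrower intervals. Col1a1 was 1.31-fold higher (1.21 to 1.42), from 938 and 2220 reads. Col5a2 was 1.37-fold higher (1.17 to 1.62), Col1a2 1.24-fold (1.08 to 1.43), Col3a1 1.22-fold (1.05 to 1.42) and Col5a1 1.21-fold (1.07 to 1.37). Col11a1, with a ratio of 1.23 (0.875 to 1.74), was the only compared fibrillar gene within counting error. Like Lamb3, Col11a1 passed the filter on mean level only through the induced Hey2 library. In the basement membrane class Nid2 was 1.26-fold higher (1.15 to 1.38), Lamc1 1.24-fold (1.19 to 1.30) and Lama5 1.21-fold (1.10 to 1.33). Col4a5 was 1.20-fold higher (1.015 to 1.42) and Lama1 1.16-fold (1.10 to 1.24). Col4a1 and Col4a2 were each 1.11-fold higher, with intervals of 1.06 to 1.17 and 1.04 to 1.19. The 5 basement membrane genes within counting error were Col4a6, Lama2, Lama4, Lamb2 and Nid1, with ratios from 0.884 to 1.12. Of the adhesive glycoproteins, Fn1 was 1.22-fold higher (1.17 to 1.29), Postn 1.37-fold (1.03 to 1.83) and Sparc 1.10-fold (1.06 to 1.14). Col18a1, the source of endostatin, was 1.31-fold higher (1.18 to 1.45). Summed over a class, fibrillar RPKM was 1.27 times and basement membrane RPKM 1.17 times the uninduced level.

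**Figure D3:**
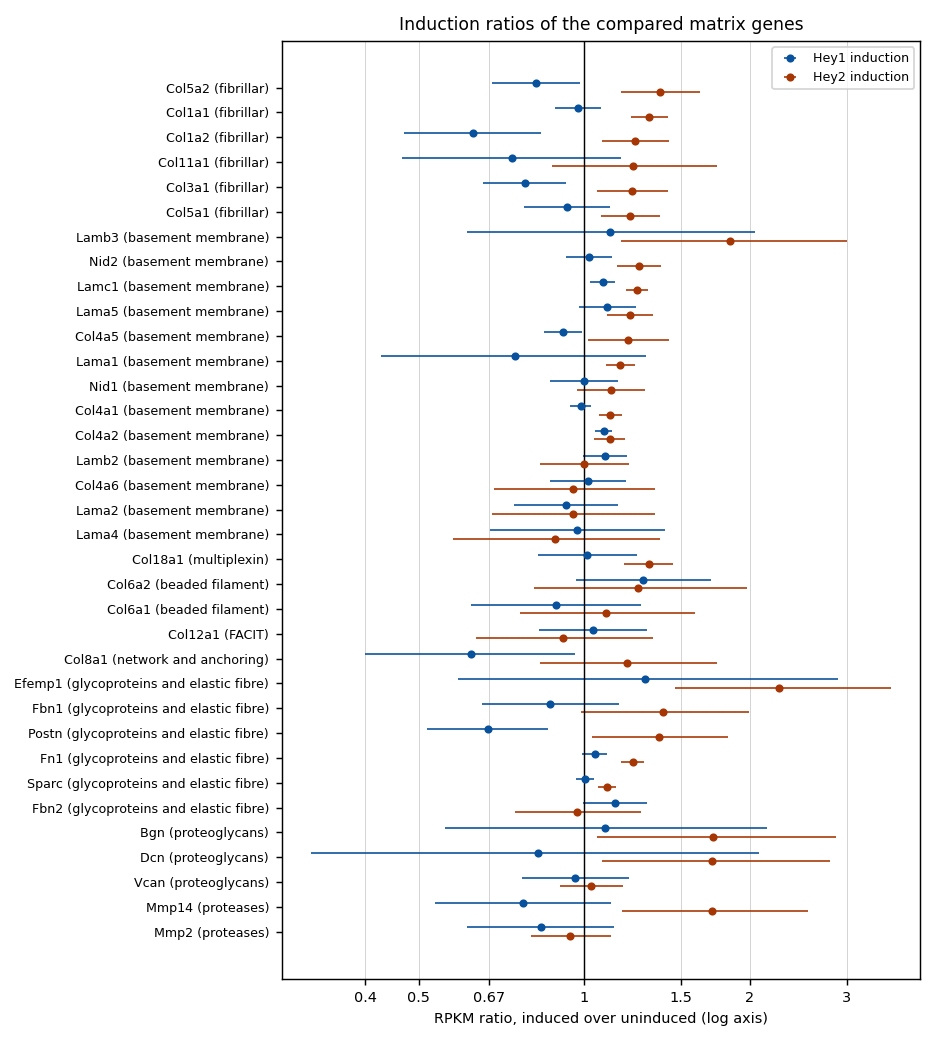
RPKM ratio of induced to uninduced cells (horizontal log axis) for 35 of the 36 compared matrix genes, ordered by class, with exact 95% intervals of counting error; blue is the Hey1 line and brown the Hey2 line. The 6 fibrillar genes lie below 1 with Hey1 (5 of 6 after median ratio or upper quartile scaling) and above 1 with Hey2, and Efemp1 has the largest Hey2 ratio of those plotted, 2.26.

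Matrix genes are long, and values of long genes differed with Hey2 induction. The median gene length recovered for the 36 genes was 5918.5 bases, against 2894 for all compared genes, and 26 of the 36 were among the 2746 longest genes (at least 4436 bases). Over those longest genes the median difference was 0.06 with 65.1% above 0, and over the 26 matrix genes among them it was 0.22 with 21 of 26 above 0. After removal of a straight line on log2 length, the median of the 36 genes was 0.17, with 28 of 36 above 0 and 9 higher by size. Epithelial and epicardial markers were also higher with Hey2 induction, from 279 to 362 RPKM in sum, and the fibroblast markers summed to 10.8 and 11.7 RPKM. The 5 smooth muscle markers, all listed in every library, summed to 140 and 173 RPKM, with Tagln 1.34-fold higher (1.23 to 1.46). The part of these cell types in the matrix values was not tested.

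The 2 inductions were compared gene by gene as the ratio of the Hey2 ratio to the Hey1 ratio, which uses 4 different libraries. That ratio exceeded 1 by counting for 16 of 36 matrix genes and lay under 1 for 0, where 12.7% of all compared genes lay above and 4.16% below. By counting it exceeded 1 for 5 of 6 fibrillar genes and for 4 of 14 basement membrane genes. The median ratio of ratios over all compared genes was itself 1.06, with 6684 of 10991 above 1. These counts are not corrected for that offset, and the lower limit of Col5a1 lies under it. The values were 1.97 (1.45 to 2.69) for Col1a2, 1.68 (1.32 to 2.14) for Col5a2 and 1.57 (1.254 to 1.962) for Col3a1. For Col1a1 the ratio of ratios was 1.35 (1.19 to 1.52) and for Col5a1 it was 1.30 (1.05 to 1.62). The basement membrane genes were Col4a5 at 1.31 (1.09 to 1.58), Nid2 at 1.23 (1.08 to 1.41), Lamc1 at 1.15 (1.07 to 1.24) and Col4a1 at 1.13 (1.06 to 1.21). Of the matrix genes off 1 by counting, Mmp14 had the largest ratio of ratios at 2.20 (1.32 to 3.68) and Postn the next at 2.04 (1.41 to 2.96). Dcn, at 2.08 (0.80 to 5.38), lay within counting error. A lower level with Hey1 together with a higher level with Hey2 was seen in 17 of 36 matrix genes, in 3275 of 10991 compared genes, and in 6 of 6 fibrillar genes (5 of 6 with median ratio or upper quartile scaling). How far the culture or the library contributes to these differences was not tested.

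Between the uninduced lines, single matrix genes differed far more than with either induction. The median of all compared genes was 0.20 (Hey2 line minus Hey1 line) and moved to 0.01 when libraries were scaled by their median ratio, so values should be read against that shift. For the 36 matrix genes the median was 0.05, and it turned to -0.14 under median ratio scaling, -0.084 under upper quartile scaling and -0.037 with the length trend removed. Here a gene was counted by size at 2-fold: 5 were higher and 5 lower in the Hey2 line, where 19.7% of all compared genes were higher and 13.1% lower. These shares are close to the background. The fibrillar median was 0.35 with 6 of 6 above 0 (4 of 6 under median ratio scaling and 5 of 6 under upper quartile scaling), and the basement membrane median was -0.14 with 6 of 14 above 0. Of all compared genes 58.0% lay above 0. Col11a1, below 1 RPKM in both Hey1-line libraries, passed the filter on mean level only through the Hey2 line.

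Lama1 was 62.4-fold higher in the uninduced Hey2 line (44.2 to 91.0), and it passed the filter on mean level only through that line. Markers of yolk sac and primitive endoderm, tissues known to make Lama1, were listed for 5, 6, 11 and 11 of 12 genes and summed to 91.2, 76.0, 42.6 and 41.2 RPKM. Most of the Hey1-line sum came from Afp (58.5, 42.0, 1.42 and 0.97 RPKM) and Gata6 (27.4, 28.8, 8.28 and 7.27 RPKM), whereas Sox17 was blank, blank, 3.28 and 3.73 RPKM, Dab2 was 1.72, 1.76, 14.9 and 15.5 RPKM, and Cubn was 0.346, 0.235, 5.21 and 5.92 RPKM. Their part in the Lama1 values was not tested. Col18a1 was 3.69-fold higher (3.11 to 4.38) at 4.32 and 15.9 RPKM. Mmp2 was 3.07-fold higher (2.41 to 3.94) at 4.27 and 13.1 RPKM, and Col1a2 was 2.91-fold higher (2.36 to 3.61). Vcan, the large proteoglycan versican of embryonic heart matrix, was 2.75-fold higher (2.28 to 3.32) at 1.49 and 4.09 RPKM. Lower in the Hey2 line were Col4a5 by 4.78-fold (4.12 to 5.57), Col4a6 by 4.21-fold (3.17 to 5.67) and Lamb2 by 3.76-fold (3.20 to 4.44). Fbn2, the fibrillin of developing tissue, stood at 5.36 and 1.54 RPKM and was lower by 3.48-fold (2.77 to 4.40), and Col4a2 was 3.02-fold lower (2.85 to 3.21). Of the 5 lower genes 4 belong to the basement membrane class, and of the 5 higher genes 1 does. That class holds 14 of the 36 compared matrix genes, and 13.1% of all compared genes were lower and 19.7% higher.

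The induced libraries of the lines, which share those libraries with the inductions above, had 8 matrix genes higher and 5 lower in the Hey2 line, beside 22.8% and 12.3% of all compared genes. The 5 lower genes were again Col4a6, Lamb2, Fbn2, Col4a5 and Col4a2, with RPKM ratios from 0.224 to 0.340. Lama1 was 97.1-fold higher (65.7 to 150). Col1a2 was 5.75-fold higher (4.56 to 7.32), Dcn 5.57-fold (2.87 to 12.1), Col18a1 4.76-fold (4.09 to 5.58) and Efemp1 4.51-fold (2.69 to 8.03). Like Lama1, Dcn and Efemp1 passed the filter on mean level only through the Hey2 line. Their Hey1-line levels were 0.778 and 0.640 RPKM for Dcn and 0.863 and 1.11 RPKM for Efemp1. The fibrillar median difference was 0.82 and that of the basement membrane class -0.04.

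**Figure D4:**
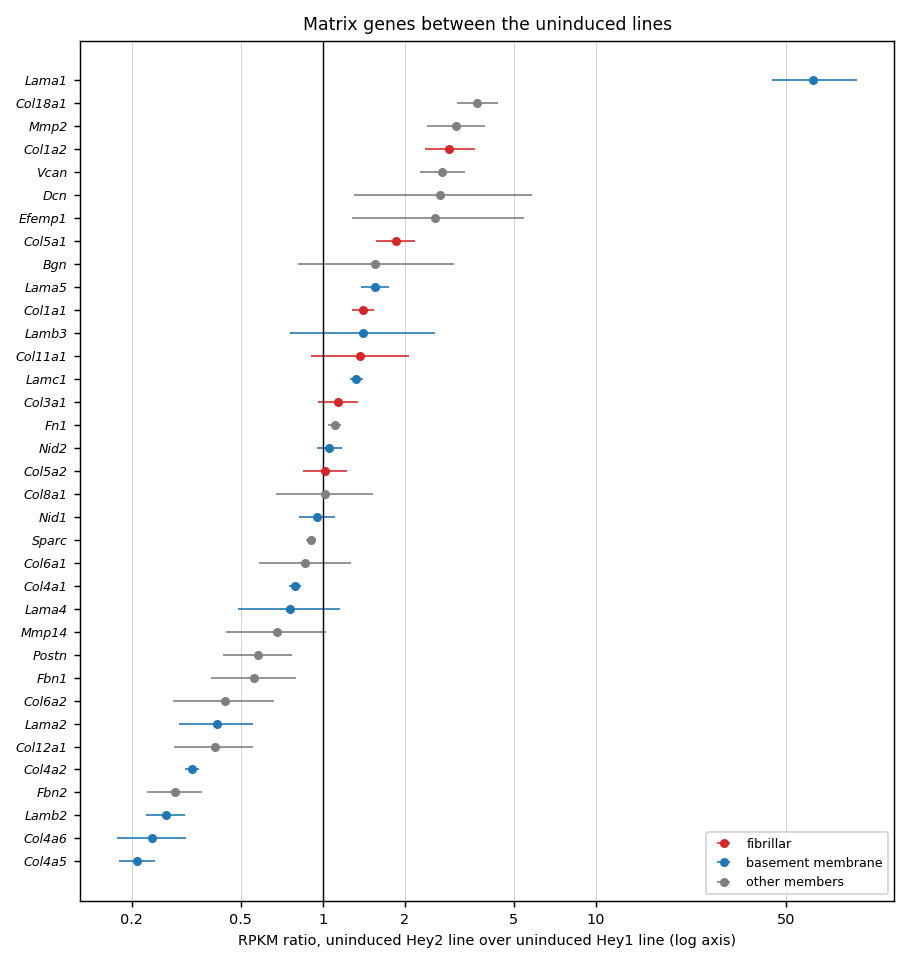
RPKM ratio of the uninduced Hey2 line to the uninduced Hey1 line (horizontal log axis) for 35 of the 36 compared matrix genes, sorted by ratio, with exact 95% intervals of counting error. Lama1 stands apart at 62.4, Col4a5, Col4a6, Lamb2, Fbn2 and Col4a2 lie between 0.209 and 0.331, and the 6 fibrillar genes (red) lie above 1, or 4 of 6 after median ratio scaling.

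Among the matrix genes with blanks, 12 were listed in the Hey2 line only, 9 of them in both of its libraries, and 0 in the Hey1 line only. The share of 20.3% lay near the 18.1% of all genes with a value that were listed in the Hey2 line only, beside 0.990% in the Hey1 line only, and the floor was lower in the Hey2 line. Col9a3, a cartilage chain that decorates type II fibrils, was at 2.26 and 2.03 RPKM in the Hey2 line, at least 4.76-fold higher between the uninduced and 4.34-fold between the induced libraries, against the Hey1-line floor of 10 reads. Lum, the corneal and connective tissue proteoglycan lumican, was at 1.68 and 1.44 RPKM, at least 2.57-fold and 2.24-fold higher in the same order. Col2a1 was at least 8.75-fold higher in the uninduced Hey2 line than the floor of the uninduced Hey1 line. The chondrogenic and skeletal markers were low, at 0.587, 0.482, 1.33 and 1.31 RPKM in sum, with Sp7 and Comp blank in every library.

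Among the enzymes that fold, cut and cross-link collagen, single genes differed in both directions. Of 19 compared genes, 2 were higher and 4 lower by counting with Hey1, and 3 were higher and 1 lower with Hey2, beside 4.88% and 13.5% of all compared genes with Hey1 and 8.04% and 6.63% with Hey2. With Hey1, the cross-linking lysyl oxidase Lox was 2.15-fold lower at 1.35 and 0.629 RPKM, the prolyl hydroxylase subunit P4ha1 was 1.39-fold lower at 8.99 and 6.46 RPKM, and Loxl2 was 1.26-fold lower. Pcolce, an enhancer of procollagen processing, was 1.30-fold higher with Hey1 at 42.1 and 54.8 RPKM. With Hey2, Loxl3 was 1.91-fold lower at 2.23 and 1.17 RPKM, and the procollagen protease Bmp1, the transglutaminase Tgm2 and the collagen chaperone Serpinh1 were 1.36-fold, 1.22-fold and 1.12-fold higher.

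Matrix receptors were higher with Hey2 in 10 of 18 compared genes and lower in 0 by counting, beside 8.04% and 6.63% of all compared genes. With Hey1 0 of the 18 were higher and 3 lower, beside 4.88% and 13.5%, so the lower count is near the background. Itgb1, the integrin beta chain shared by most collagen and laminin receptors, stood at 106, 89.8, 80.1 and 93.8 RPKM, 1.19-fold lower with Hey1 and with a ratio of 1.17 (1.11 to 1.24) with Hey2. With Hey2 the laminin receptor chain Itga7 was 2.98-fold higher (1.38 to 7.34) at 0.346 and 1.03 RPKM. Itgav, of the fibronectin and vitronectin receptors, was 1.5-fold higher (1.26 to 1.79). The proteoglycan Sdc1 was 1.39-fold higher and Itgb5 1.32-fold higher.

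Of 7 other basement membrane genes compared, 2 were higher with Hey1 and 3 with Hey2 by counting, and 0 were lower with either. Among all compared genes 4.88% and 8.04% were higher and 13.5% and 6.63% lower, so a count of 0 lower in 7 genes is near the background. Hspg2, which encodes perlecan, stood at 21.2, 24.5, 10.9 and 15.2 RPKM, 1.16-fold higher with Hey1 and 1.39-fold higher with Hey2. Agrn, the synaptic organizer agrin, was 1.16-fold and 1.15-fold higher, and Frem2 was 1.42-fold higher with Hey2. Among 13 matricellular and TGF-beta genes, 3 were higher with each induction and 0 lower, beside 4.88% of all compared genes higher with Hey1 and 8.04% with Hey2, with Tgfb2, a TGF-beta ligand of heart cushions, 1.58-fold higher with Hey2 at 5.89 and 9.32 RPKM. Among 9 metalloproteinases and inhibitors, 1 was higher with Hey2 (Timp3, 1.18-fold) and 0 with Hey1, and 0 were lower with either. These metalloproteinase counts are near the same background shares.

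The promoters of the matrix genes were searched for CACGTG and CACGCG, E-box-like motifs known to be bound by Hey family proteins, on both strands. RefSeq windows were found for 39 of the 59 genes, 43 windows in all. CACGTG was in 0 of 43 windows and in 7.15% of 32851 windows of all genes. CACGCG was in 3 of 43 windows (6.98%; Col25a1, Col5a3 and Efemp1) and in 9.27% of all windows. The Efemp1 window, at chr11:28852955-28853254 on the plus strand of GRCm38.p6, is shown because Efemp1 had the largest Hey2 ratio among the 36 compared genes, with capitals for the motif, which here reads on the opposite strand.
Efemp1: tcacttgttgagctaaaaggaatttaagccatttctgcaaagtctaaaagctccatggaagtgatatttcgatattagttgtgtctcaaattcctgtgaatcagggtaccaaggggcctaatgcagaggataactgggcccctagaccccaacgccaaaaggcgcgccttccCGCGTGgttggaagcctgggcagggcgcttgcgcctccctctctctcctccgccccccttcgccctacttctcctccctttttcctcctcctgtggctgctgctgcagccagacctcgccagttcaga
A match describes these letters only, and binding was not analysed here.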

How the data were processed

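RNA-seq of 4 libraries was used, and the 8 chromatin immunoprecipitation samples were not analysed here. RPKM, read density per kilobase and library size, are the values the authors deposited, per the file headers, in 1 table with 1 column per library. Per the submitters' processing notes the build was mm9. Those notes also list Bowtie 1.0, MACS 1.4.1 and DESeq (no version), without saying what each did. The sources used here do not give the annotation, the counter, or how strand and multiply matching reads were handled, so reads of overlapping or similar genes may be shared. The authors' 2 fold columns were not used.

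Whole reads were recovered from the steps of the values, with divisors of 7400000, 7500000, 5750000 and 10375000 reads. Reads came out whole in 15363 of 15371 listed genes (99.95%), within 3e-06 at a whole-base length of up to 25000, against 11.5% with 1 divisor wrong by 1%. For low genes the true reads may be a multiple of those recovered, which would narrow the intervals. Ratio intervals are exact conditional binomial at 95%, level intervals are exact Poisson, and the interval of a ratio of ratios is normal on the log scale. All cover counting error only, since copies from PCR are not independent molecules. The pseudocount of 1 RPKM understates the difference of low genes. Python 3.11.15, NumPy 2.4.6, pandas 2.3.3, SciPy 1.17.1 and Matplotlib 3.10.9 were used, and the recovery and intervals were tested on simulated data.

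The matrix genes, their classes and the other lists were chosen with earlier results of these data known. Named were all fibrillar and basement membrane genes, the 5 largest ratios each way among those off 1 by counting, the highest levels in each line, and up to 4 genes of each further list. The values of 1 basement membrane gene are not reported here, although it is included in the counts, sums and medians. A planned comparison of collagen protein repeats was not run, since no protein sequences were used here. Alternatives were another pseudocount, 2 other scalings, 3 other treatments of low or blank values, a minimum of 50 reads and a length correction.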

Additional observations from a re-analysis of the deposited data

Results flagged for a closer look

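The values with the inductions differed for the matrix genes. The median difference of the 36 genes was higher with Hey2 than with Hey1 by 0.25 on the log2 scale, and for the 6 fibrillar genes the medians differed by 0.49. The Hey1 median of the 36 genes lay close to 0 and its sign depended on the scaling, being 0.059 with median ratio and 0.033 with upper quartile scaling, while 5 of the 6 fibrillar genes were below 0 in each of those settings. Neither difference of medians was tested, since each induction is 1 pair of libraries. Single genes were picked out because their ratio was below 1 with Hey1 and above 1 with Hey2 and the ratio of ratios lay off 1 by counting error, which has no replicate check. These ratios of the Hey2 to the Hey1 ratio were 2.20 for Mmp14, 2.04 for Postn, 1.97 for Col1a2, 1.92 for Col8a1, 1.68 for Col5a2, 1.60 for Fbn1 and 1.57 for Col3a1. They were 1.35 for Col1a1, 1.31 for Col4a5, 1.30 for Col5a1 and 1.13 for Col4a1. The Hey1 ratios of Mmp14, Fbn1, Col1a1, Col5a1 and Col4a1 lay within counting error, as did the Hey2 ratios of Fbn1 and Col8a1. For all compared genes the median ratio of ratios was 1.06, with 6684 of 10991 above 1.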

How the results depend on the processing

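For 12 results and 8 alternatives, 96 values were computed. Of these, 83 kept their direction and moved by less than 1 side of the 95% interval of the median over the genes (counts by less than 1.5 times), 7 counts moved, and 6 medians changed sign. The median of the matrix genes with Hey1 induction, -0.02, became 0.059 under median ratio scaling, 0.033 under upper quartile scaling and 0.0012 with no minimum mean. Their median between the uninduced lines, 0.05, became -0.14, -0.084 and -0.037 under median ratio scaling, upper quartile scaling and removal of the length trend. The number of matrix genes higher with Hey1 by size was 0, and became 2 with a pseudocount of 0.1 RPKM and 1 with median ratio scaling, with upper quartile scaling or with blanks read as 0. The share of all compared genes went from 3.28% to 5.93%, 6.92%, 5.56% and 3.85% in the same order. The number lower with Hey1 went from 3 to 7 with the pseudocount of 0.1 RPKM, where the share of all compared genes went from 12.6% to 19.0%. The number higher with Hey2 went from 10 to 5 when at least 50 reads were required, with 23 genes left. The share of all compared genes went from 5.62% to 3.62% there. The number lower in the uninduced Hey2 line went from 5 to 8 with a pseudocount of 0.1 RPKM, where the share of all genes went from 13.1% to 16.3%. The smaller pseudocount and the read minimum change these counts by their own construction, through genes of low level. For the changed signs the cause was not tested. No paired analysis was possible because each group holds 1 library. Depth limits the genes of low level, such as Efemp1, Lamb3, Bgn and Dcn, whose ratio intervals are wide.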
